A study of Mus musculus with 8 samples.

Results

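Voltage-gated, potassium and TRP (transient receptor potential) ion channels were described in pancreatic beta cells of mice with floxed alleles of Adar, which encodes an RNA-editing enzyme that turns adenosines of double-stranded RNA into inosines. The genes were chosen by name, as Abcc8 and all rows named as Kcn, Scn, Cacna, Cacnb, Cacng, Trpc, Trpm or Trpv genes, with names ending in os, -ps or AS left out, and by a mean of at least 50 normalized counts over the 8 libraries. The rule took 62 of 44343 genes. It matched 158 rows by name, of which 96 had a mean under 50 (70 between 10 and 50, and 26 under 10). Of the 62 genes, 60 encode channel subunits and 2 do not: Kcnq1ot1, an antisense long noncoding RNA of the Kcnq1 locus, and Trpc4ap, a protein named for binding to Trpc4. Nearest above the threshold were Cacna2d3 at 50.3 and Kcnab1 at 52.7 normalized counts, and nearest below it were Kcnab2 at 48.9 and Kcnh7 at 48.3. The threshold used the mean of all libraries, and 5 of the 62 genes averaged under 50 in KO libraries (Scn11a, Cacna1s and Trpm6 among them) and 3 under 50 in Het libraries (Cacna2d3, Kcnf1 and Scn2a). The direction of these 8 genes was partly set by the rule, and they are included in the counts below.

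The KO libraries (4) came from MipCreER; Adar floxed/floxed; R26R-EYFP mice, and the Het libraries (4) from MipCreER; Adar floxed/+; R26R-EYFP mice, all given 2 doses of 8 mg tamoxifen at 1 month of age. MipCreER is a tamoxifen-inducible Cre recombinase under an insulin promoter, and R26R-EYFP marks cells in which Cre has acted with a yellow fluorescent protein, so the Het mice carry Cre, the reporter and 1 floxed Adar allele as well. Islets were dissociated 7 days after tamoxifen and YFP-positive cells were sorted for total RNA sequencing. The strain and the number of mice behind a library are not given in the sources used here, so p-values measure the spread between these libraries, which may be technical.

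Beta cells couple glucose metabolism to insulin release through their membrane potential. ATP-sensitive potassium channels hold the cell at rest and close when the ATP level rises; the cell then depolarizes, voltage-gated calcium channels open, and calcium entry triggers exocytosis. Delayed rectifier, calcium-activated and tandem-pore potassium channels shape and end the electrical bursts, sodium channels contribute to the upstroke, and TRP channels carry background and calcium-activated cation currents. Transcripts of some channels, such as Cacna1d in brain, are known to be edited, but gene counts hold no information on editing.

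The libraries held 5.37 M to 15.9 M reads, and a single channel gene was covered by 14 to 10431 reads in a library. Beta cell markers dominated: the 10 markers summed to 227404 to 1370660 normalized counts in KO and 628782 to 1293690 in Het libraries, Ins2 being the highest. The 6 alpha cell markers summed to 798 to 1554 in KO and 589 to 896 in Het libraries, and the 4 delta cell markers to 533 to 771 in KO and 390 to 687 in Het libraries. The 8 acinar markers summed to 39.4 to 160 in KO and 65.1 to 96.1 in Het libraries, and the 5 macrophage markers to 141 to 360 in KO and 297 to 443 in Het libraries. The 4 duct cell markers summed to 1202 to 3878 in KO and 1128 to 2387 in Het libraries, of which Krt7 alone gave 1112 to 3662 in KO and 1013 to 2075 in Het libraries, while Sox9 was at 16.1 or less in every library. The part of these cell types in the channel results was not tested. Adar itself had 4030, 2365, 615 and 1343 normalized counts in KO 1 to KO 4, against 943, 1173, 1187 and 744 in Het 1 to Het 4. A gene-level count over all exons does not check a deletion of some exons, so the labels were not checked this way. Under the deposited scaling KO 1 and KO 2 stood above KO 3 and KO 4 in 10298 of the 11064 genes averaging 50 or more. The Y-linked gene Ddx3y had 812, 1285, 1.10 and 0 normalized counts in KO 1 to KO 4, against 696, 286, 396 and 198 in Het 1 to Het 4, so KO 3 and KO 4 also held next to no male RNA, unlike the other libraries. Xist, expressed from the inactive X chromosome, had 4891, 7207, 2343 and 4890 in KO 1 to KO 4, against 19.2, 4103, 6425 and 4378 in Het 1 to Het 4, so Het 1 held next to no female RNA. KO 1, KO 2, Het 2, Het 3 and Het 4 had both transcripts, so each of them held RNA of both sexes. The part of this sex difference in the channel results was not tested. Differences of level between libraries that the size factors leave in place touch each channel below. Values are therefore given as deposited and again after TMM scaling. The median log2 fold change of the 21498 tested genes was 0.05 as deposited and -0.16 with TMM, where 13578 were negative. Among the 11064 genes averaging 50 or more it was 0.25 as deposited and 0.03 with TMM. Among the 6697 averaging 200 or more it was 0.24 and 0.02. TMM thus centred the better expressed genes and not all tested genes.

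The most abundant channel transcripts per kilobase of annotated exon in Het libraries included both subunits of the ATP-sensitive potassium channel and a tandem-pore channel. Abcc8, the sulfonylurea receptor subunit, averaged 884 ± 193 normalized counts per kb (SD, n = 4), and Kcnk16, a tandem-pore potassium channel of islets, 482 ± 188. Kcnmb2, an auxiliary subunit of the large-conductance calcium-activated channel, followed at 207 ± 40.6, and Kcnj11, the pore of the ATP-sensitive channel, at 175 ± 48.4. Next came the calcium channel pores Cacna1a (P/Q-type) at 150 ± 41.0 and Cacna1d (L-type) at 145 ± 30.7 per kb, then Trpm5 at 124 ± 32.9, Cacnb3 at 123 ± 23.9 and Kcnh2 at 122 ± 20.5. From Cacna1a to Kcnh2 neighbouring genes differed by less than 1 SD. Among the lowest were Kcnq3 at 3.62 ± 0.757, Scn2a at 3.89 ± 1.16 and Cacna1e at 5.54 ± 1.01 per kb. These levels describe genes that were chosen by their level and carry no test. Of the channel genes known from work on mouse beta cells, Kcnq1 (mean 41.7), Kcnk3 (42.0), Cacna1h (26.4) and Cacng4 (16.0) fell under the threshold.

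A floor for these levels was taken from 1258 genes of olfactory and vomeronasal receptors, a class made by sensory neurons of the nose. They averaged 1.26, 1.05, 3.44 and 2.83 normalized counts per kb in KO 1 to KO 4, against 2.37, 1.77, 1.70 and 2.86 in Het 1 to Het 4. KO 3 and KO 4 thus had more of this signal per kb than KO 1 and KO 2. In Het libraries 32 of the 62 genes lay at 10 or more times that level and 30 lay below it, a limit chosen after seeing the data. Among the 30 were Cacna1e, the R-type calcium channel, Kcnq3, a neuronal potassium channel, and Cacna1f and Cacna1s, which are known from retina and skeletal muscle.

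**Figure D1:**
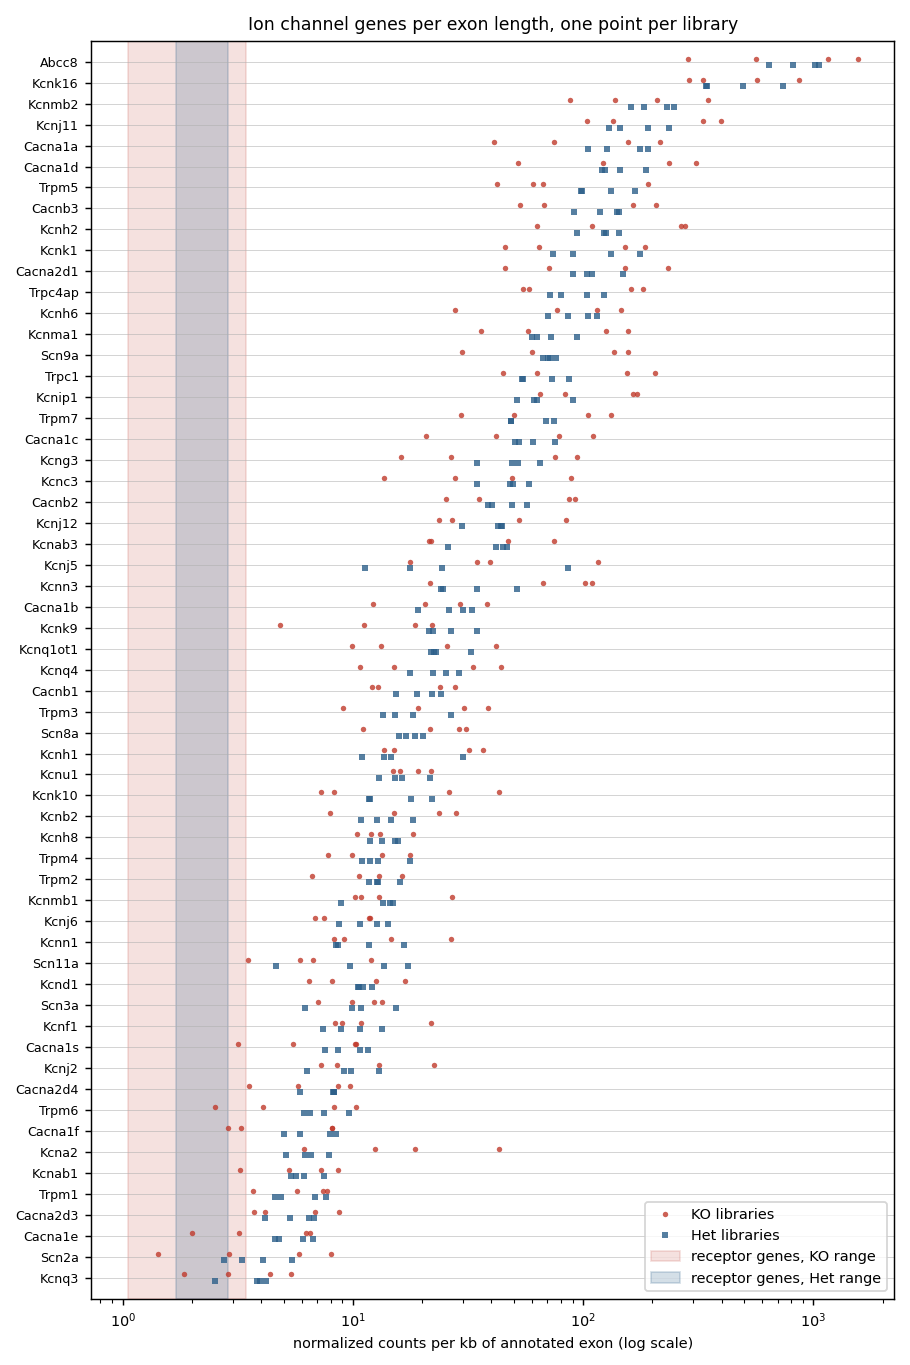
Normalized counts per kb of annotated exon (log axis) for 59 of the 62 genes, 1 point per library, KO in red and Het in blue, ordered by the Het mean; shaded bands give the range of the receptor genes in each group. Abcc8 and Kcnk16 lead, and the lowest genes, such as Kcnq3 at 3.62 per kb in Het, reach into the bands.

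The 32 better expressed channel genes followed the level of their library. Their median log2 difference from the Het mean was 0.48, 0.93, -1.05 and -0.59 in KO 1 to KO 4, against -0.15, 0.13, 0.33 and -0.37 in Het 1 to Het 4. For all 11064 genes averaging 50 or more the same value was 0.96, 1.01, -0.48 and -0.34 in KO 1 to KO 4, against -0.10, 0.12, 0.31 and -0.31 in Het 1 to Het 4. In each of the 4 KO libraries the median of these channel genes was below that of all genes. The 32 were chosen by their Het level and the 11064 were not, and the part of this choice was not tested. Among genes averaging 200 or more, the 30 channel genes had 0.73, 0.92, -0.98 and -0.42 in KO 1 to KO 4. All 6697 genes of that level had 0.99, 1.08, -0.65 and -0.44, so KO 4 was not below there. Of the 32 genes, 30 had KO 1 and KO 2 both above KO 3 and KO 4. The exceptions were Trpm5 and Kcnj5. The 30 genes nearer the receptor genes behaved otherwise: 16 had KO 1 and KO 2 above KO 3 and KO 4, and 10 had them below (Cacna1e, Cacna1f, Cacna1s, Cacna2d3, Cacna2d4, Kcnab1, Kcnq3, Scn11a, Scn2a and Trpm6). KO 3 and KO 4 were the KO libraries with more receptor gene signal, and its part in these genes was not tested. All 62 genes together took 0.326%, 0.346%, 0.253% and 0.416% of the reads of KO 1 to KO 4, against 0.376%, 0.395%, 0.357% and 0.395% in Het 1 to Het 4. The highest and the lowest share were both KO libraries, and the groups overlapped.

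**Figure D2:**
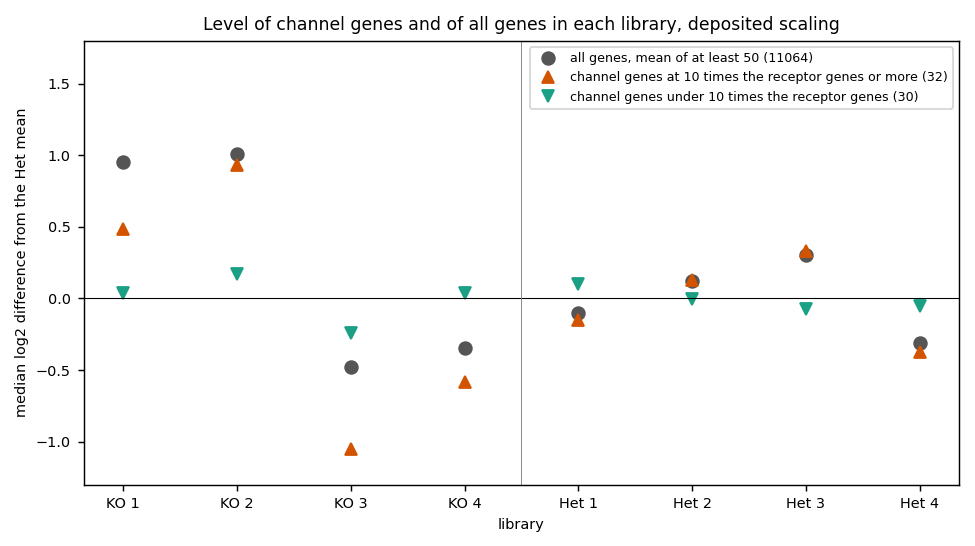
Median log2 difference from the Het mean in each library under the deposited scaling, for all genes averaging 50 or more (grey), the 32 channel genes at 10 or more times the receptor genes (orange) and the other 30 (green). The orange points range from -1.05 in KO 3 to 0.93 in KO 2, while the green points stay between -0.24 and 0.17.

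No channel gene passed the test in the comparison of KO with Het under the deposited scaling. Limma gave 0 of 62 higher, against 0.921% of all tested genes, and 0 lower, against 0.0233%, at an adjusted p under 0.05. Before adjustment, at p under 0.05, it gave 1 higher (Kcna2), against 4.05% of all genes, and 2 lower (Kcnk9 among them), against 2.7%. DESeq2 on whole reads gave 0 in each direction (backgrounds 0.476% higher and 0.00677% lower), and before adjustment, at p under 0.05, 3 higher (3.65% of all genes) and 2 lower (0.974%). EdgeR on whole reads gave 0 higher (background 0.673%) and 1 lower, Kcnk9 (background 0.0343%), and before adjustment 3 higher (4.75%) and 6 lower (1.91%). With TMM scaling limma gave 0 higher (background 0.637%) and 2 lower, Kcnk9 among them (background 0.0372%). Quantile normalization gave 0 higher (background 1.49%) and 2 lower, Kcnk9 and Cacna1a (background 0.642%). When the fit was limited to genes averaging 200 or more, 30 of them channel genes, with TMM factors from the same genes, limma gave 0 higher (background 6.03%) and 3 lower, Kcnk9, Cacna1a and Cacnb3 (background 4.24%). With only KO 1 and KO 2 set against the Het libraries 24 channel genes were called higher (background 45.5%) and 8 lower (background 16.1%), and with only KO 3 and KO 4, 0 higher (background 1.27%) and 14 lower (background 7.45%). In bulk RNA, fewer cells with a transcript and less of it per cell cannot be told apart.

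Over the 62 genes, 27 had a positive and 35 a negative log2 fold change as deposited, with a median of -0.08, against 0.25 for all 11064 genes averaging 50 or more (8359 positive and 2705 negative). Without the 8 genes that averaged under 50 in 1 group, 26 were positive and 28 negative as deposited, and 13 and 41 with TMM. With TMM, 14 were positive and 48 negative, with a median of -0.30, against 0.03 for those genes. All KO values lay above all Het values in 0 of the 62 genes as deposited, against 2.19% of tested genes, and below in 1, against 0.893%. With TMM they lay above in 0, against 3.67%, and below in 6, among them Kcnk9, Kcnj6, Kcnd1 and Cacnb1, against 1.7%. Kcnj6 (a G protein-gated inward rectifier), Kcnd1 (a fast-inactivating voltage-gated channel) and Cacnb1 (a calcium channel beta subunit) were named after their values were seen.

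**Figure D3:**
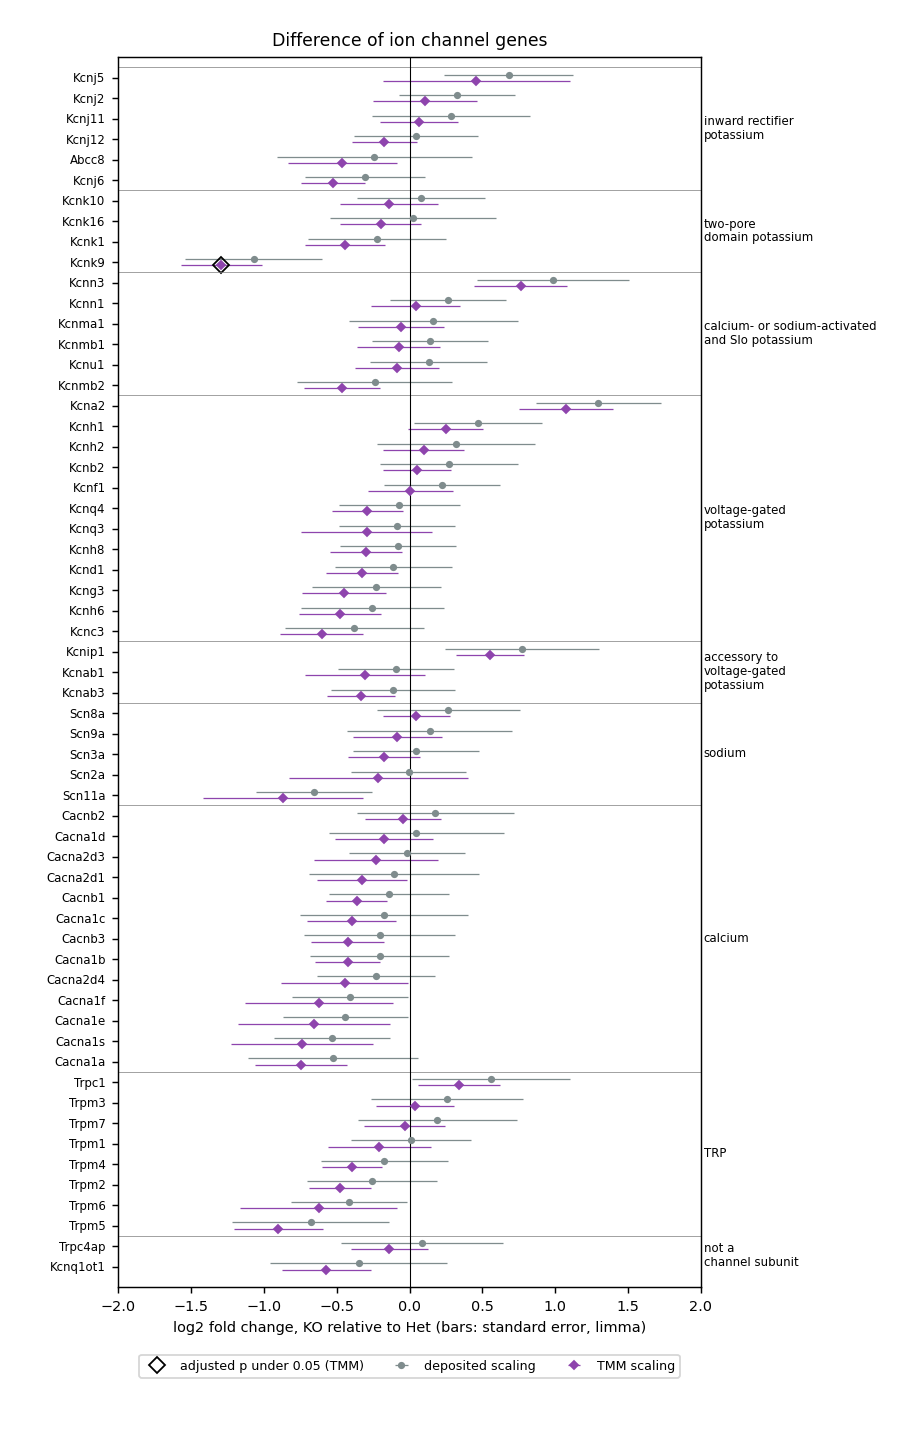
Log2 fold change of KO relative to Het for 59 of the 62 genes by channel class, as deposited (grey) and with TMM (purple), with bars for the standard error from limma and an open diamond where the adjusted p with TMM was under 0.05. The diamond sits on Kcnk9 at -1.29, and all 13 calcium channel genes lie left of 0 with TMM.

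Kcnk9, an acid-sensitive tandem-pore potassium channel that carries background current, was lower in KO beta cells after TMM scaling. The gene lies on chromosome 15, 72501089 to 72546340, minus strand (GRCm38). It had 229, 272, 137 and 59.5 normalized counts in KO 1 to KO 4, against 263, 426, 273 and 329 in Het 1 to Het 4. As deposited only KO 2 reached into the Het range. Its log2 fold change was -1.07 ± 0.47 (SE), with an adjusted p of 0.564 from limma. With TMM it had 164, 178, 175 and 73.2 in KO libraries, against 296, 435, 259 and 410 in Het libraries, and the groups did not overlap. This gave a log2 fold change of -1.29 ± 0.28, and an adjusted p of 0.0377 from limma, while edgeR gave -1.26 with an adjusted p of 0.0322. DESeq2 on whole reads did not call it, with a log2 fold change of -0.89 ± 0.45 and an adjusted p of 0.548. In the fit of genes averaging 200 or more it was -1.31 ± 0.29, with an adjusted p of 0.0215. Leaving out each library in turn with TMM gave -1.42 to -0.99 and adjusted p from 0.0117 to 0.136 by limma. The call was lost without KO 1, KO 4, Het 1, Het 2 or Het 4. With quantile normalization the log2 fold change was -1.42, with an adjusted p of 0.0258 from limma. Per kb Kcnk9 stood at 12.1 times the receptor genes in Het and 6.61 times in KO libraries.

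The other tandem-pore potassium channels did not pass the test. Kcnk16 had 1348, 2054, 683 and 788 normalized counts in KO libraries, against 811, 1180, 1764 and 823 in Het libraries. KO 2 was highest and KO 3 lowest of all 8, and the log2 fold change was 0.03 ± 0.57 as deposited and -0.20 ± 0.28 with TMM. Kcnk1, a weak inward rectifier of this family, had -0.22 ± 0.47, and Kcnk10, a mechanosensitive member, 0.08 ± 0.44 as deposited; both were at or under -0.14 with TMM.

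Scn9a, the best expressed of the voltage-gated sodium channel pores, had 1734, 1996, 381 and 765 normalized counts in KO libraries, against 856, 918, 975 and 900 in Het libraries. The Het libraries were close together and the KO libraries lay on either side of them, at a log2 fold change of 0.14 ± 0.56 as deposited and -0.08 ± 0.31 with TMM. Scn3a had 0.04 ± 0.43 and Scn8a 0.27 ± 0.49 as deposited. Scn11a, known from sensory neurons, had 35.0, 20.7, 39.7 and 70.8 in KO libraries, against 102, 57.5, 27.4 and 81.0 in Het libraries, with -0.66 ± 0.40 and overlapping groups; with a mean of 41.6 in KO and 67.1 in Het libraries it met the level rule only through the Het group. Over the 6 sodium channel genes the median log2 fold change was 0.02 as deposited and -0.19 with TMM.

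The calcium channel genes lay on the negative side. Of the 13 genes, 11 had a negative log2 fold change as deposited and all 13 with TMM, with medians of -0.20 and -0.42. Of the 11 that averaged 50 or more in both groups, 9 were negative as deposited and 11 with TMM. None of the 13 passed the test as deposited or with TMM over all tested genes. Of all 62 genes of the rule, 35 were negative as deposited and 48 with TMM. Of all 11064 genes averaging 50 or more, 2705 were negative as deposited and 5138 with TMM. Cacna1e, Cacna1f, Cacna1s, Cacna2d3, Cacna2d4 and Cacnb1 stood under 10 times the receptor genes in Het libraries. Cacna1a, the P/Q-type pore, had 1797, 2476, 467 and 857 normalized counts in KO libraries, against 1445, 2014, 2188 and 1195 in Het libraries. The groups overlapped, with KO 2 highest of all 8, and the log2 fold change was -0.52 ± 0.58, with an adjusted p of 0.948 from limma. With TMM, Cacna1a had 1285, 1622, 596 and 1054 in KO libraries, against 1627, 2054, 2076 and 1490 in Het libraries. KO 2 then stood between Het 4 and Het 1, and the other KO libraries below all Het libraries. Its log2 fold change was -0.74 ± 0.32 with TMM, with an adjusted p of 0.523, and -0.77 ± 0.17 among genes averaging 200 or more, with an adjusted p of 0.0204, both from limma. In that last fit leaving out a library gave -0.85 to -0.64 and adjusted p from 0.0109 to 0.0740. Its call was lost without KO 1, Het 1, Het 2 or Het 3.

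Cacnb3, a beta subunit that regulates calcium channel gating, had 658, 832, 214 and 272 normalized counts in KO libraries, against 473, 563, 574 and 368 in Het libraries. The means were the same within error, 494 ± 299 in KO and 494 ± 95.8 in Het libraries (SD, n = 4 each), with KO 1 and KO 2 above and KO 3 and KO 4 below every Het value. Among genes averaging 200 or more, with TMM factors, the log2 fold change was -0.45 ± 0.11, with an adjusted p of 0.0288 from limma. Leaving out a library gave -0.49 to -0.41 and adjusted p from 0.0166 to 0.0979, and the call was lost without KO 1 or without any 1 of the 4 Het libraries. Cacnb2, another beta subunit, had a log2 fold change of 0.18 ± 0.54 as deposited and -0.04 ± 0.26 with TMM. Cacna2d1, the extracellular alpha2delta subunit that sets surface density, had -0.11 ± 0.58 as deposited and -0.33 ± 0.31 with TMM. Cacna1e had 80.7, 50.5, 164 and 158 normalized counts in KO libraries, against 154, 116, 121 and 169 in Het libraries, with KO 1 and KO 2 below every Het value and KO 3 and KO 4 among them, and a log2 fold change of -0.44 ± 0.43. Cacna1s had 35.9, 20.7, 67.3 and 66.7 in KO libraries, against 56.4, 76.3, 49.7 and 70.5 in Het libraries, at -0.53 ± 0.40; its mean of 47.6 in KO and 63.2 in Het libraries met the level rule only through the Het group.

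The L-type pores Cacna1c and Cacna1d, which carry most of the calcium current near the threshold of mouse beta cells, were set against each other within each library, where a size factor cancels. Cacna1c had 1666, 2332, 441 and 885 normalized counts in KO libraries, against 1075, 1284, 1598 and 1121 in Het libraries. Cacna1d had 2968, 3919, 661 and 1544 in KO libraries, against 1572, 1834, 2372 and 1528 in Het libraries. The ratio of Cacna1c to Cacna1d was 0.561, 0.595, 0.668 and 0.573 in KO 1 to KO 4, against 0.684, 0.700, 0.674 and 0.734 in Het 1 to Het 4. All 4 KO ratios lay below all 4 Het ratios, by a narrow margin between KO 3 and Het 3. The difference was -0.22 on the log2 scale. Its exact permutation p was 0.0286, the smallest that the 70 arrangements allow, and 0.0571 adjusted over the 4 pairs compared. How often ratios of other gene pairs keep the groups apart in these libraries was not tested, here or for the pairs below.

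Start regions of these genes are shown because each has starts of different base composition, which a ratio of gene counts cannot separate. The sequences are from RefSeq, GRCm38.p6, from 250 bases before to 50 after the start, on the gene's strand, and capitals mark E-box letters (CANNTG, which reads the same on both strands). For each gene the start with the most CpG pairs is printed, 57 for Cacna1c at chr6:119108446-119108745 and 63 for Cacna1d at chr14:30353437-30353736, both on the minus strand.
Cacna1c: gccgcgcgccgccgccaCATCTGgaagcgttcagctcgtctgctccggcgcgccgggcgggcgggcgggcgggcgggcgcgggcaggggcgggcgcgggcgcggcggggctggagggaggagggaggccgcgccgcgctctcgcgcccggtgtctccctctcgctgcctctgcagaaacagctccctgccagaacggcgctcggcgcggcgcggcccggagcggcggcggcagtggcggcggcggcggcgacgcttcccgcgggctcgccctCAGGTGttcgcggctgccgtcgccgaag
Cacna1d: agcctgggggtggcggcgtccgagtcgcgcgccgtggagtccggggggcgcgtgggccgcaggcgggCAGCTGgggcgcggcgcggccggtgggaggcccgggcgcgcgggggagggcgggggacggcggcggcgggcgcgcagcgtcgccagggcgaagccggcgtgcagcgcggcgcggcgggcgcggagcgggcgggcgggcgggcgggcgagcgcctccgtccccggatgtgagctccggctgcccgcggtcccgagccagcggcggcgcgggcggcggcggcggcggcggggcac
The table held 3 starts for Cacna1c and 2 for Cacna1d, and the other starts had between 3 and 7 CpG pairs. E-box letters stood in 42 of the 62 start regions found for 45 of the channel genes, against 72.3% of all 32851 regions. GAS letters (TTCNNNGAA, searched on both strands) stood in 8 of the 62, against 8.30%, and those of the interferon-stimulated response element (GAAA, NN and GAAA in a row, both strands) in 2, both of Kcnab1, against 3.44%. The letters TATAAA, on both strands, stood in 4, against 13.6%, and TGACGTCA in 0, against 1.79%. The median start region held 10 CpG pairs for channel genes and 7 for all genes.

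The ATP-sensitive potassium channel is built from Kcnj11 and Abcc8, which lie next to each other on chromosome 7 (46093953 to 46100764 and 46104523 to 46180033, both on the minus strand). Kcnj11 had 1225, 1455, 384 and 497 normalized counts in KO libraries, against 530, 706, 867 and 476 in Het libraries. Abcc8 had 9350, 12645, 2304 and 4565 in KO libraries, against 6580, 8571, 8254 and 5210 in Het libraries. Both genes were highest in KO 2 and lowest in KO 3, with log2 fold changes of 0.28 ± 0.54 for Kcnj11 and -0.24 ± 0.67 for Abcc8 as deposited. With TMM they were 0.06 ± 0.27 for Kcnj11 and -0.46 ± 0.37 for Abcc8, and neither passed the test in limma. The ratio of Kcnj11 to Abcc8 within a library was 0.131, 0.115, 0.167 and 0.109 in KO 1 to KO 4, against 0.0806, 0.0824, 0.105 and 0.0913 in Het 1 to Het 4. All KO ratios lay above all Het ratios, with KO 4 and Het 3 nearly equal. The difference was 0.53 on the log2 scale, with an exact permutation p of 0.0286, again the smallest possible, and 0.0571 adjusted over the 4 pairs. With the receptor gene level subtracted from each count it stayed 0.53, and that of Cacna1c over Cacna1d became -0.25.

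The other pairs showed wider spreads. The ratio of Scn9a to Scn3a averaged 8.42 ± 3.76 in KO and 7.63 ± 2.94 in Het libraries (SD, n = 4 each), a log2 difference of 0.09 with an exact permutation p of 0.886. The ratio of Trpm5 to Trpm4, both calcium-activated monovalent cation channels, was 2.68, 6.36, 4.02 and 3.19 in KO libraries, against 4.90, 4.40, 7.72 and 5.36 in Het libraries. KO 1, KO 3 and KO 4 were below all Het ratios and KO 2 was second highest, so that the log2 difference of -0.51 had an exact permutation p of 0.171, or 0.229 adjusted over the 4 pairs. Leaving out 1 library gave adjusted p from 0.0381 to 0.457 for this pair, and from 0.0381 to 0.114 for the Kcnj11 and the Cacna1c ratios, by the exact permutation test. The 0.0381 arose only without KO 2, the KO library with the highest Trpm5 ratio, where these 3 pairs all reached 0.0286, the smallest p that 35 arrangements allow, so it does not rank them.

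**Figure D4:**
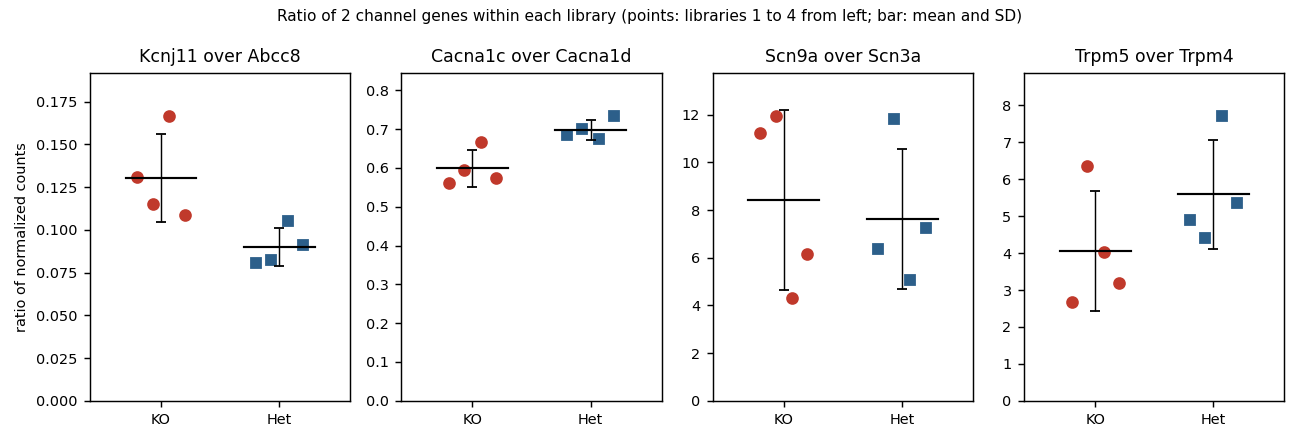
Ratio of normalized counts within each library for 4 pairs of channel genes, 1 point per library, KO left of Het in each panel, with bars for the mean and SD. The groups do not overlap for Kcnj11 over Abcc8 and for Cacna1c over Cacna1d, while they do for the other pairs. How often ratios of other genes keep the groups apart was not tested.

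None of the other inward rectifiers passed the test. Kcnj5, a subunit of G protein-gated channels that slow the cell when inhibitory receptors are bound, had 546, 162, 184 and 82.8 normalized counts in KO libraries, against 114, 401, 53.1 and 82.6 in Het libraries. KO 1 and Het 2 stood far above the rest, and the log2 fold change was 0.68 ± 0.45. Kcnj6, which assembles with such subunits, had 90.5, 89.3, 57.4 and 52.4 in KO libraries, against 82.0, 109, 96.9 and 66.4 in Het libraries. With TMM it had 64.7, 58.5, 73.3 and 64.4 in KO libraries, against 92.3, 111, 91.9 and 82.9 in Het libraries, so that the groups overlapped as deposited and were apart after this scaling. Its log2 fold change was -0.31 ± 0.41 as deposited and -0.52 ± 0.22 with TMM, with an adjusted p of 0.502 from limma. The class was counted with Kcnj11 and its partner Abcc8, which is not itself an inward rectifier. Of these 6 genes 4 were positive as deposited, with a median of 0.17, and 3 with TMM, with a median of -0.05.

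Kcna2, a voltage-gated potassium channel known from axons, had the largest positive difference among the 62 genes as deposited. It lies on chromosome 3, 107101146 to 107115005, plus strand. It had 513, 223, 72.8 and 148 normalized counts in KO libraries, against 93.5, 61.3, 78.0 and 73.7 in Het libraries. KO 1, KO 2 and KO 4 were above all Het libraries and KO 3 was within them. The log2 fold change was 1.30 ± 0.43, with an unadjusted p of 0.00257 and an adjusted p of 0.174 from limma. With TMM it had 367, 146, 93.0 and 182 in KO libraries, against 105, 62.5, 74.0 and 91.9 in Het libraries. This gave a log2 fold change of 1.08 ± 0.32, with an adjusted p of 0.226. Leaving out each library gave 0.81 to 1.75 as deposited, with adjusted p from 0.00433 to 0.9998, and 0.72 to 1.37 with TMM, with adjusted p from 0.0105 to 0.614, by limma. Kcna2 was called in 1 of these 8 fits under each scaling, that without KO 3, its lowest KO library. In Het libraries Kcna2 stood at 6.44 ± 1.12 normalized counts per kb, 2.96 times the receptor genes.

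Kcnn3, a small-conductance calcium-activated potassium channel that contributes to the pauses between bursts, had 1147, 1063, 226 and 701 normalized counts in KO libraries, against 251, 360, 541 and 257 in Het libraries. KO 3 was lowest of all 8 and the other 3 KO libraries were above every Het library. The log2 fold change was 0.98 ± 0.52 as deposited, with an adjusted p of 0.777, and 0.76 ± 0.32 with TMM, with an adjusted p of 0.504, both from limma. Leaving out each library with TMM gave 0.60 to 1.12 and adjusted p from 0.0129 to 0.971 by limma, and Kcnn3 was called in 1 of the 8 fits, that without KO 3, its lowest library. Kcnip1, a calcium-binding partner of fast-inactivating voltage-gated potassium channels, had 1065, 1021, 518 and 402 in KO libraries, against 380, 390, 561 and 320 in Het libraries. After TMM scaling it had 762, 669, 662 and 495 in KO libraries, against 428, 398, 532 and 399 in Het libraries, where KO 4 and Het 3 overlapped. Its log2 fold change was 0.77 ± 0.53 as deposited and 0.55 ± 0.23 with TMM, with an adjusted p of 0.517 from limma. Among genes averaging 200 or more it was 0.53 ± 0.16, with an adjusted p of 0.0574, and from 0.0303 to 0.162 when 1 library was left out, being called without KO 2 or KO 3. Of the named genes Kcna2, Kcnn3 and Kcnip1, which were chosen for their small p in these data, were positive in every setting tried.

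The start regions of Kcna2 (chr3:107101317-107101616, plus strand) and Kcnn3 (chr3:89519914-89520213, plus strand) are shown as those of the genes with the largest positive differences, again from RefSeq, GRCm38.p6, with E-box letters (CANNTG) in capitals.
Kcna2: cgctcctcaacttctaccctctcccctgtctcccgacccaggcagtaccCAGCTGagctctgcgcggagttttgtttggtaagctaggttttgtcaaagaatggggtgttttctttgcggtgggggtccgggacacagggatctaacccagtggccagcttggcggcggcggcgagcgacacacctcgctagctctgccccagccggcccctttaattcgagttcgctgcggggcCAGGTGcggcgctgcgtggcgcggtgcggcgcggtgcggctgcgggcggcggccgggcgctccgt
Kcnn3: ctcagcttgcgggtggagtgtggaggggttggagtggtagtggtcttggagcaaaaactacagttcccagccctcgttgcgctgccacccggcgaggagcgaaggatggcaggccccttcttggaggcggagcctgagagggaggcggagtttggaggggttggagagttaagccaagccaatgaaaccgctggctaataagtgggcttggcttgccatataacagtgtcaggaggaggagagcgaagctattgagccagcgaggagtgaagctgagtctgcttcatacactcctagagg
That of Kcna2 held 31 CpG pairs and 2 E-box matches, and that of Kcnn3 11 CpG pairs and 0 matches, a result of these letters in these windows alone.

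**Figure D5:**
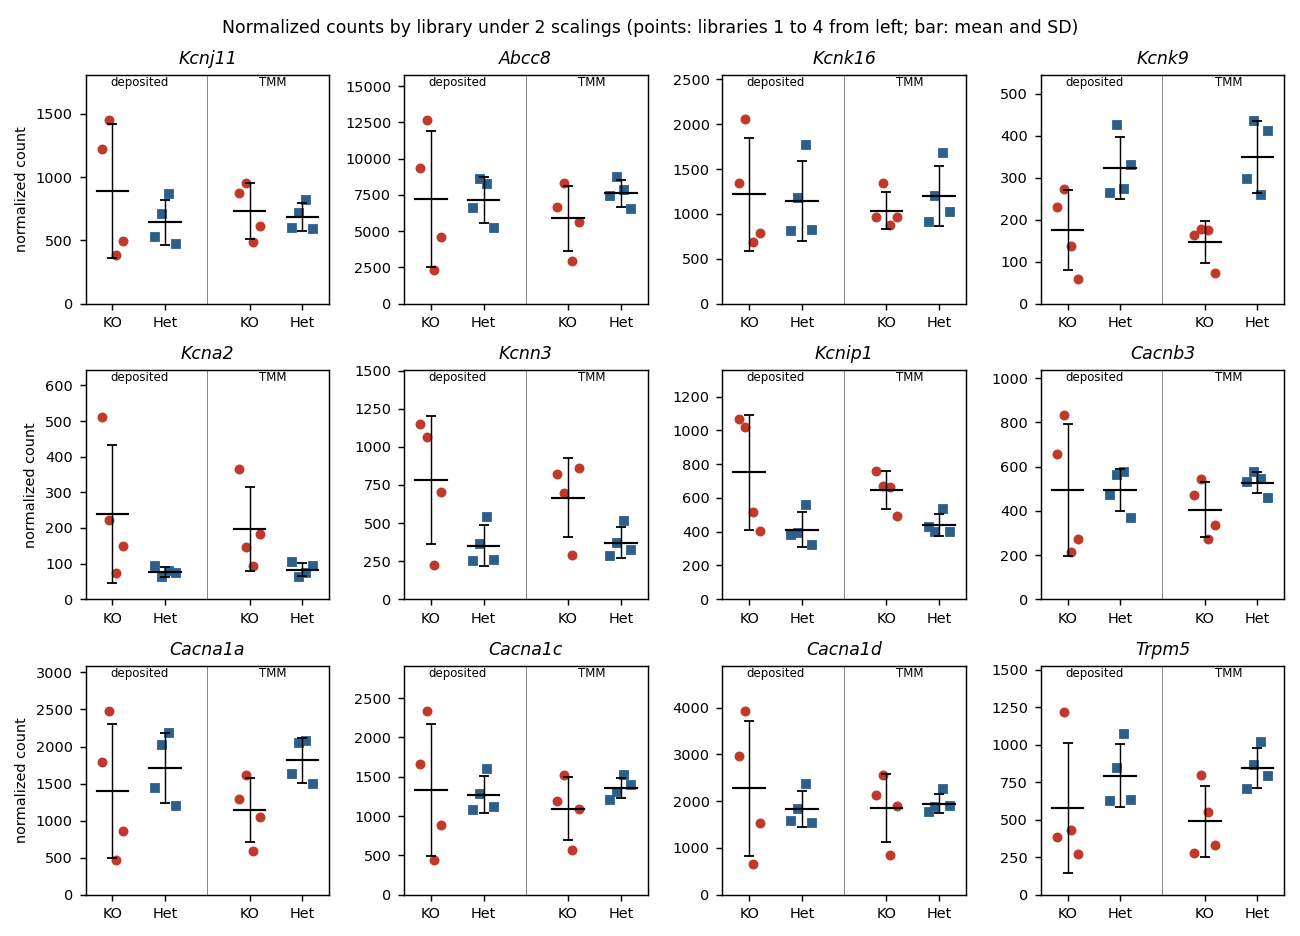
Normalized counts in each library for 12 channel genes, with KO left of Het, as deposited on the left and with TMM on the right of each panel; bars give the mean and SD. KO and Het points of Kcnk9 are apart after TMM scaling, while those of Kcnj11, Abcc8 and Kcnk16 overlap under both.

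Kcnh6, a channel of the ether-a-go-go-related family, had -0.26 ± 0.49, and Kcnh1 of the ether-a-go-go family 0.47 ± 0.44 as deposited. Of the 14 voltage-gated potassium channel genes 5 were positive and 9 negative under both scalings, with medians of -0.08 as deposited and -0.30 with TMM. Kcnma1, the large-conductance calcium-activated channel, had 0.16 ± 0.58 as deposited and -0.06 ± 0.29 with TMM, and Kcnn1 0.26 ± 0.40 and 0.04 ± 0.31.

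Among the 8 TRP genes 4 were positive as deposited and 2 with TMM, with medians of -0.08 and -0.30. Trpm5, a calcium-activated cation channel that adds to depolarization in mouse beta cells, had 386, 1219, 430 and 270 normalized counts in KO libraries, against 628, 846, 1071 and 634 in Het libraries. KO 2 was highest of all 8 and the other 3 KO libraries were below every Het library. The log2 fold change was -0.68 ± 0.54 as deposited, with an adjusted p of 0.910, and -0.90 ± 0.31 with TMM, with an adjusted p of 0.334, both from limma. Leaving out each library with TMM gave -1.18 to -0.67 and adjusted p from 0.0389 to 0.802 by limma, and it was called in 1 of the 8 fits, that without KO 2, its highest library. Trpc1, a subunit of calcium-permeable cation channels, had 0.56 ± 0.54, Trpm7, a channel fused to a kinase, 0.19 ± 0.55, and Trpm3, a steroid-sensitive channel, 0.26 ± 0.52 as deposited. Trpm2, opened by ADP-ribose, had -0.26 ± 0.45 and Trpm4 -0.17 ± 0.44. None of these passed the test.

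The 2 genes that are not channel subunits were in the same range. Trpc4ap had a log2 fold change of 0.08 ± 0.56 as deposited and -0.14 ± 0.27 with TMM. Kcnq1ot1 had 2391, 3888, 920 and 1239 normalized counts in KO libraries, against 2101, 2038, 3043 and 2142 in Het libraries, at -0.35 ± 0.61 as deposited and -0.57 ± 0.31 with TMM. It overlaps Kcnq1, and since the strand setting of the counting is not given in the sources used here, their reads cannot be told apart.

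Genes that work beside these channels were described from 3 lists. The first held 36 other channels and chloride transporters, among them Clcn3 to Clcn7 and Tmem175, which are known from endosomes and lysosomes. All 36 were tested, and 0 were called in either direction as deposited or with TMM by limma. Before adjustment (p under 0.05) it gave 1 in each direction as deposited, and the medians were 0.00 and -0.21. Of 20 genes of calcium release from stores and of calcium entry, 0 were called under either scaling. As deposited 0 had an unadjusted p under 0.05 from limma, and the medians were 0.11 as deposited and -0.10 with TMM. Of 22 ion pumps and exchangers 0 were called likewise, with medians of -0.07 and -0.29. In the fit of genes averaging 200 or more, Hcn2, P2rx4 and Grin1 of the first list were called lower (3 of 17), against 4.24% of all genes in that fit. Of the second list Itpr3, a calcium release channel of the endoplasmic reticulum, was called lower at -0.95 ± 0.18 and Micu3, a regulator of the mitochondrial calcium uniporter, higher at 0.60 ± 0.11 (1 of 11 each, adjusted p of 0.0135 from limma, against 4.24% of all genes lower and 6.03% higher). Itpr3 had 773, 1404, 231 and 386 normalized counts in KO libraries, against 876, 1091, 1012 and 715 in Het libraries. Micu3 had 948, 894, 274 and 306 in KO libraries, against 225, 326, 365 and 254 in Het libraries, so that KO 1 and KO 2 carried its difference as deposited. These genes were named because they were called.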

How the data were processed

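RNA of 8 libraries, 4 KO and 4 Het, was measured with a stranded total RNA kit for low input that primes at random and carries molecular identifiers, per the labels' protocols. STAR 2.7.3a, UMI-tools, DESeq2 1.28.1, FastQC 0.11.8 and HTSeq are listed in the submitters' processing notes, with mm10 as the build and no role for any tool. Annotation, strand setting and duplicate removal are not given in the sources used here. The authors deposited a signal per gene that the file calls normalized counts, that is, reads over a size factor of the library. Dividing by the smallest value above 0 returned whole reads for 100% of values in each library (tolerance 0.001 of a read).

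Limma 3.58.1 (R 4.3.3; eBayes with trend and robust settings, two-sided) was run on log2(value + 1) of all 21498 genes averaging 10 or more, and p-values were Benjamini-Hochberg adjusted over all of them. All 62 channel genes passed this filter. Fold changes are KO relative to Het on that scale and understate those of low genes. Under the deposited scaling the p-values rest on a spread shared by genes of like level. Whole reads were tested with edgeR 4.0.16 (quasi-likelihood, filterByExpr, TMM) and DESeq2 1.42.0. Ratios used an exact two-sided permutation test over 70 arrangements, adjusted over 4 pairs. Levels per kb used exon lengths and coordinates of the GENCODE M21 annotation of GRCm38, and random priming also reads introns, which these lengths leave out. The scripts were tested on simulated counts. No 2 libraries of a group agreed within counting noise (chi-square per degree of freedom at least 32.2 within KO and 3.62 within Het).

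The channel genes, lists and tests were chosen with earlier results of these data known. Named genes are the members of a list of known beta cell channels, the 5 smallest p in each direction, genes called, and the 2 genes that are not subunits; others are said to be named for their values. Some channel genes are counted but their own values are not reported here. Alternatives were pseudocounts of 0.5 and 8, other filters, TMM and quantile scaling, eBayes settings, array weights, the replicate block, the count tests, pairs of KO libraries and leaving out each library. Added after seeing the data were combinations with the filter at 200 and the subtraction of the receptor gene level. Deviations of libraries with the same replicate number had correlations of -0.28, 0.27, -0.55 and 0.63 for numbers 1 to 4. KO 1 and KO 2 went with Het 3 (0.51 and 0.63), and KO 3 and KO 4 with Het 4 (0.62 and 0.63). These values therefore can neither show nor exclude a pairing by number.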

Additional observations from a re-analysis of the deposited data

Results flagged for a closer look

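Values far from the other 3 of their group were looked for in 72 groups of 4 libraries, and 2 were found. Chance alone gives about 1 in 20 groups, so 2 of 72 is not more than chance gives. Trpm5 had 1219 normalized counts in KO 2, against 270 to 430 in the other KO libraries. Kcnq1ot1 had 3043 in Het 3, against 2038 to 2142 in the other Het libraries. No explanation was tested for either.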

How the results depend on the processing

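Counts of channel genes called under the deposited scaling (0 higher and 0 lower) were unchanged with pseudocounts of 0.5 and 8, no filter, a mean of at least 50, other eBayes settings, array weights and DESeq2. They became 2 lower with TMM or quantile scaling, 3 lower with TMM among genes averaging 200 or more, and 1 lower with edgeR. With KO 1 and KO 2 alone 24 were higher and 8 lower, and with KO 3 and KO 4 alone 0 were higher and 14 lower. Cacna1c (0.65) and Cacna2d1 (0.76) were called higher with KO 1 and KO 2 alone, opposite in sign to all libraries. With TMM among genes averaging 200 or more, KO 1 and KO 2 alone gave 0 higher and 2 lower (2.0% and 1.19% of all genes in that fit), and KO 3 and KO 4 alone 1 higher and 1 lower (5.91% and 6.3%). Leaving out 1 library gave 0 to 1 higher and 0 to 1 lower as deposited, where 0.488% to 1.57% of all genes were called higher and 0.00465% to 0.209% lower. With TMM it gave 0 to 2 higher and 0 to 3 lower (all genes 0.428% to 1.38% and 0.0093% to 0.363%), and among genes averaging 200 or more 0 to 2 higher and 0 to 6 lower (all genes 1.81% to 9.59% and 0.329% to 8.77%). The causes were not tested.

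With the replicate number as a block limma called 0 higher and 0 lower as deposited (all genes 0.847% and 0.0233%), 1 higher (Kcna2) and 2 lower with TMM (1.43% and 0.447%), and 1 higher and 5 lower among genes averaging 200 or more (7.44% and 6.59%). The same block on the ratios (exact sign-flip test) gave p of 0.125, 0.125, 0.875 and 0.25 for Kcnj11, Cacna1c, Scn9a and Trpm5, where 0.125 is the smallest possible.

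Leaving out 1 library, the log2 difference of Kcnj11 over Abcc8 ranged between 0.40 and 0.60, Cacna1c over Cacna1d between -0.27 and -0.19, Scn9a over Scn3a between -0.12 and 0.37, and Trpm5 over Trpm4 between -0.75 and -0.33. Of the 32 named genes, 6 kept their direction in every alternative: Kcna2, Kcnip1, Kcnk9, Kcnn3, Scn11a and Trpm5. Scn11a met the level rule only through its Het libraries. Kcna2, Kcnip1, Kcnk9, Kcnn3 and Scn11a were named for their small p in these same data. The alternatives also reuse the same libraries, so a kept direction is no sign of stability for any of the 6. Depth limits the low genes most, with as few as 14 reads for a gene in a library.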

Other observations

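Kcnn3 lies near Adar, on chromosome 3, 89520164 to 89675132, and Adar at 89715022 to 89753446 on the same plus strand, with 39.9 kb and 0 protein-coding genes between them. Chrnb2, on the minus strand at 89746195 to 89764632, overlaps the end of Adar, and without a stated strand setting their reads cannot be told apart. Of 33 protein-coding genes within 1 Mb of Adar that averaged 200 or more, limma with TMM factors from genes of that level called 0 higher, against 6.03% of all genes in that fit, and 2 lower, Atp8b2 and Pmvk, against 4.24%. Kcnn3 had a log2 fold change of 0.74 there, with an adjusted p of 0.0794, Adar 0.51, with an adjusted p of 0.143, and Chrnb2 -0.26, with an adjusted p of 0.174. Kcna2 lies 17.3 Mb from Adar, and the other channel genes on chromosome 3 had -0.09 (Kcnab1) and -0.24 (Kcnmb2) as deposited.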
